A study of Heliconius himera and Heliconius erato lativitta and Heliconius erato petiverana with 18 samples.

Results

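The 150 gene IDs described here are those whose share of the gene reads varied least over 18 butterfly wing libraries. They were chosen on measured values. Reads per ID were scaled to counts per 1000000 gene reads (CPM), 1 was added, and the standard deviation (SD) of the log2 value was taken over all 18 libraries. Of 14612 IDs, 2805 had a mean of at least 50 CPM, and the 150 with the smallest SD among these are the members. They made up 5.35% of the IDs past that level and 1.03% of all IDs. Every library took part in the choice, so the values of the members in these libraries are a description, and a small spread is the rule itself rather than a result.

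The study sequenced poly-A-selected messenger RNA, in libraries made with NEB reagents, from whole wings of Heliconius butterflies on day 3 of pupal life, and its stated aim was to examine mRNA abundance at that stage. The 3 taxa were H. himera, H. erato lativitta and H. erato petiverana, and each taxon had forewing (FW) libraries numbered 1 to 3 and hindwing (HW) libraries numbered 1 to 3, which gave 6 groups. All animals were reared at about 27 °C, the labels name no treatment, and a whole wing holds every cell type of that wing. Whether the 3 libraries of one group are from different animals is not stated in the labels, so any p-value below measures the spread between libraries, which may be technical.

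Genes that take a near-constant part of the messenger RNA are often called housekeeping genes, and many of them serve functions that all cells share, such as making proteins or handling energy. Such genes are sought as references against which other genes are measured. CPM is a share, so it stays constant only where a gene keeps pace with the sum of all other genes, and a few very abundant transcripts can change that sum. Trimmed-mean scaling (TMM) instead sets the typical ID equal between libraries, and the members are given on both scales for this reason. The deposited files pair the IDs with 0 gene names, so functions, positions, lengths and sequences of the members are not described here, and a level of one ID cannot be set against that of another per length.

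The libraries held 4599197 to 17002996 gene reads and fell into 2 sorts of composition. In 8 libraries, all 6 of petiverana and the forewing and hindwing libraries labelled himera 1, the 10 most abundant IDs took 30.7% to 33.7% of the gene reads. In the other 10 libraries these took 8.62% to 12.4%. Reads that overlapped more than 1 annotated feature (ambiguous reads) made up 0.453% to 0.715% of reads in the 8 and 1.40% to 1.77% in the 10. TMM factors were 0.522 to 0.740 in the 8 and 1.23 to 1.63 in the 10. No member was among the 10 most abundant IDs of any library.

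Across the 2805 IDs, the libraries labelled himera 1 were more like those of petiverana than like the other himera libraries. Across the 2805 IDs, the log2 levels of both correlated with those of the other 4 himera libraries at an r of 0.0896 to 0.140, and with those of petiverana at 0.609 to 0.773, where the other himera libraries correlated with each other at 0.945 to 0.981. The libraries labelled himera 1 correlated with one another at 0.974. Across the 150 members they correlated with the other himera libraries at 0.878 to 0.913 and with petiverana at 0.893 to 0.919. Correlations within petiverana are not given here. These are correlations across IDs, which are not independent replicates. Whether their label is wrong was not tested, and these libraries may not be himera, so results that rest on them are given with and without them. The choice of members used no label. Between the sorts of composition, the libraries labelled himera 1 correlated with lativitta at 0.0829 to 0.109. The other himera libraries correlated with petiverana at 0.0343 to 0.274. The files of every taxon list the same 14612 IDs, and whether the same genome and annotation served all taxa is not stated. Whether an ID measures the same gene in both sorts of library was not tested. The part that differences in alignment between taxa have in these values was not tested.

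The members spanned a wide range of levels within a narrow range of spread. Their mean level ran from 50.1 to 1957 CPM with a median of 111 CPM, against a median of 116 CPM over the 2805 IDs. Their SD ran from 0.15 to 0.40 on the log2 scale, with a median of 0.33, against a median of 0.86 and a maximum of 6.15 over the 2805. The highest library exceeded the lowest by 1.44-fold to 3.18-fold, with a median of 2.15-fold, against a median of 6.0-fold over the 2805. The ratio was under 1.5-fold in 2 members, HEL_003058 and HEL_011876, and under 2-fold in 46. It was over 3-fold in HEL_014130, which ran from 31.0 to 93.3 CPM, and in HEL_014598, which ran from 45.3 to 144 CPM. Both of these, named after their values were seen, were lowest in a petiverana library numbered 1.

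The spread was larger than counting error. The members had at least 152 reads in every library and a median of 826 reads per library. Counting alone gives a median SD of 0.054 for such numbers, and the observed SD was 2.55 to 29.1 times the counting SD, with a median of 5.81. Even the steadiest members therefore varied between libraries by more than the number of reads allows for. The smallest ratio, 2.55, was that of HEL_003669.

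The cut at 150 fell in a continuous distribution. The last 3 members inside it, HEL_012814, HEL_006162 and HEL_005622, had SDs of 0.3992, 0.3993 and 0.3996. The first 3 IDs outside it, HEL_008234, HEL_001904 and HEL_003034, had SDs of 0.3998, 0.4006 and 0.4010.

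HEL_003058 had the smallest spread of all 2805 IDs, with a mean of 259 CPM and an SD of 0.15 on the log2 scale. Its CPM was 240.1, 303 and 296 in himera forewings and 224, 285 and 299 in himera hindwings. It was 251, 248 and 289 in lativitta forewings and 240.4, 256 and 272 in lativitta hindwings. It was 229, 260.0 and 242 in petiverana forewings and 211, 253 and 262 in petiverana hindwings. All groups overlapped, and the lowest library of each himera and petiverana group was the one numbered 1.

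On TMM-scaled CPM the same ID differed between groups. It read 370.4, 229 and 226 in himera forewings and 361, 224 and 244 in himera hindwings. It read 171, 152 and 193 in lativitta forewings and 170.1, 192 and 172 in lativitta hindwings, against 373, 369 and 327 in petiverana forewings and 404, 359.9 and 359.5 in petiverana hindwings. Every petiverana library now stood above every lativitta library, and the libraries labelled himera 1 stood beside petiverana. The SD of HEL_003058 on this scale was 0.49.

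HEL_011876, the second steadiest, had a mean of 139 CPM. Its CPM was 124, 122 and 114 in himera forewings and 157, 144 and 150.1 in himera hindwings. It was 137, 138 and 118 in lativitta forewings and 137, 133 and 146 in lativitta hindwings. It was 167, 124 and 147 in petiverana forewings and 152, 131 and 163 in petiverana hindwings. The wings did not overlap in himera, where all 3 hindwings were higher, and overlapped in both races of H. erato. On TMM-scaled CPM its himera forewings read 191, 92.3 and 86.8 and its himera hindwings 254, 113 and 122, so they overlapped, and each hindwing was above the forewing of its number.

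HEL_000592, the third, had a mean of 97.2 CPM and ran from 73.9 CPM in lativitta hindwing 2 to 123 CPM in petiverana forewing 2. HEL_003669 ran from 42.4 to 74.4 CPM around a mean of 58.2 CPM. HEL_001800 ran from 52.5 to 82.2 CPM and HEL_001801, which bears the next ID number, from 181 to 299 CPM. The last 3 of these reached their highest level in the hindwing library labelled himera 1, as the plot of the 6 steadiest IDs by library shows.

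**Figure D1:**
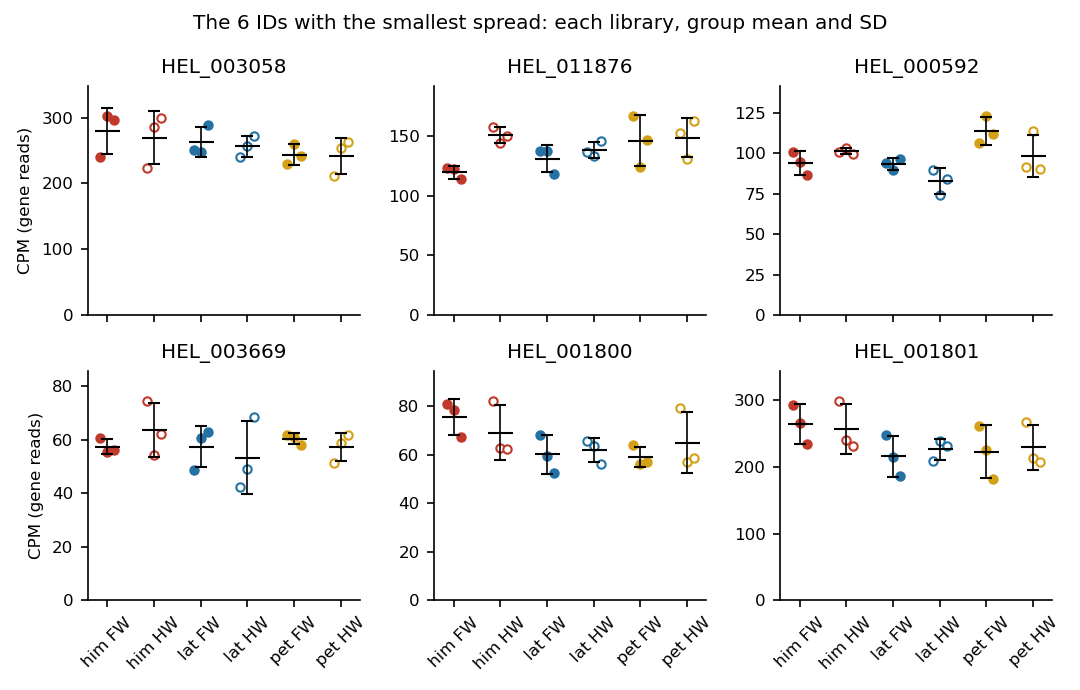
Level of the 6 IDs with the smallest SD in each of the 18 libraries, in counts per 1000000 gene reads, by taxon (him, lat and pet stand for himera, lativitta and petiverana) and wing (filled points for forewings, open points for hindwings), with a bar at the mean and a line for the SD of each group of 3. HEL_003058 stays between 211 and 303 in all libraries, and its 6 groups overlap.

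The most abundant members were HEL_001440 with a mean of 1957 CPM, HEL_001025 with 1523 CPM and HEL_002313 with 904 CPM. HEL_001440 was lower in the libraries labelled himera 1, at 1293 and 1166 CPM, than in the other himera libraries, at 1830 to 2455 CPM. HEL_002313 had a break of the same kind within petiverana, where the libraries numbered 1 held 558 and 551 CPM and the others 1076 to 1432 CPM. HEL_001025 ran from 1372 to 2274 CPM in petiverana and from 965 to 1668 CPM in himera, which overlapped. The least abundant members, HEL_000340, HEL_010715 and HEL_008216, had means of 50.1, 50.6 and 50.7 CPM and stood just above the level required.

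What spread the members had lay mostly between taxa and between numbered libraries. Each member's sum of squares over the 18 libraries was divided into parts between taxa, between numbers within a taxon (the mean of forewing and hindwing with the same number), between wings and the rest. The median shares were 38.5%, 44.9%, 0.964% and 7.85% in the members. Over the 2805 IDs the median shares were 63.1%, 32.7%, 0.328% and 2.34%. The part between numbers was the largest in 80 members, the part between taxa in 66 and the part between wings in 0. Over the 2805 IDs these counts were 772, 2020 and 0. The parts rest on unequal degrees of freedom, with fewest for wings and more for numbers than for taxa. Their sizes are therefore not comparable with each other as they stand. Without both libraries labelled himera 1, a setting added after seeing the data, the median share between taxa was 55.2% and that between numbers 28.0% in the members, and 85.9% and 8.41% over the 2805, so the order of both parts in the members rested on these libraries. With all libraries, the rest was largest in HEL_011876, HEL_010062, HEL_011661 and HEL_004848.

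HEL_006886 had the largest share between taxa, at 88.9%. Its CPM ran from 107 to 119 in the 6 lativitta libraries, from 77.1 to 104 in himera and from 73.5 to 80.5 in petiverana. On TMM-scaled CPM its lativitta libraries ran from 71.2 to 81.2 and its petiverana libraries from 101 to 142. The order of both races of H. erato thus turned with the scaling, without overlap on either scale. HEL_005173, with 88.9% between taxa, did the same, at 416 to 507 CPM in lativitta against 238 to 281 CPM in petiverana, and at 305 to 327 against 375 to 455 on TMM-scaled CPM.

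HEL_013226 had the largest share between numbers, at 92.4%. It held 77.6 and 84.7 CPM in the libraries labelled himera 1 and 83.7 and 73.5 CPM in those of petiverana 1, while the other 14 libraries held 101 to 139 CPM. HEL_010715, with 89.7%, moved in opposite directions in these libraries. It held 30.8 and 31.9 CPM in himera 1 against 49.9 to 58.0 CPM in the other himera libraries, and 79.2 and 82.0 CPM in petiverana 1 against 35.1 to 39.7 CPM in the other petiverana libraries. Forewing and hindwing libraries with the same number stood together in each of these cases.

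HEL_012773 had the largest share between wings, at 24.9%. Its lativitta forewings held 71.8, 69.2 and 65.3 CPM and its lativitta hindwings 60.9, 52.2 and 64.7 CPM, which did not overlap. On TMM-scaled CPM the forewings read 48.7, 42.5 and 43.5 and the hindwings 43.1, 39.2 and 40.9, which overlapped. In himera and petiverana its wings overlapped on both scales. HEL_011876 followed with 22.4%.

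The label of a steady set held on plain CPM and did not hold on scales that set the typical ID equal between libraries. On TMM-scaled CPM, 2700 IDs passed the level of 50, and 0 of the 150 members were among the 150 with the smallest SD. TMM factors were 0.522 to 0.740 in 8 libraries and 1.23 to 1.63 in the other 10. An ID that is level on plain CPM is therefore not level on TMM-scaled CPM. The empty overlap thus follows largely from the choice and the factors. The best-placed member was at rank 330, the median at 1138 and the last at 1754, while HEL_000340 fell under the level. Median-of-ratios factors, which likewise set the typical ID equal, also left 0 of the 150. The members are accordingly called the IDs whose share of reads varied least, rather than steadily expressed genes.

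The sets that both scales chose had no ID in common. The median SD of the members was 0.33 on plain CPM and 0.49 on TMM-scaled CPM, and 127 of 150 had the larger SD on the TMM scale. Among all 2805 IDs, 29.6% did. The 150 IDs that TMM scaling would choose had SDs of 0.10 to 0.19 on that scale and 0.43 to 0.72 on plain CPM. The plot of one SD against the other shows these 127 members above the line of equal spread and the other members not above it. All members lie apart from the low point of the cloud.

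**Figure D2:**
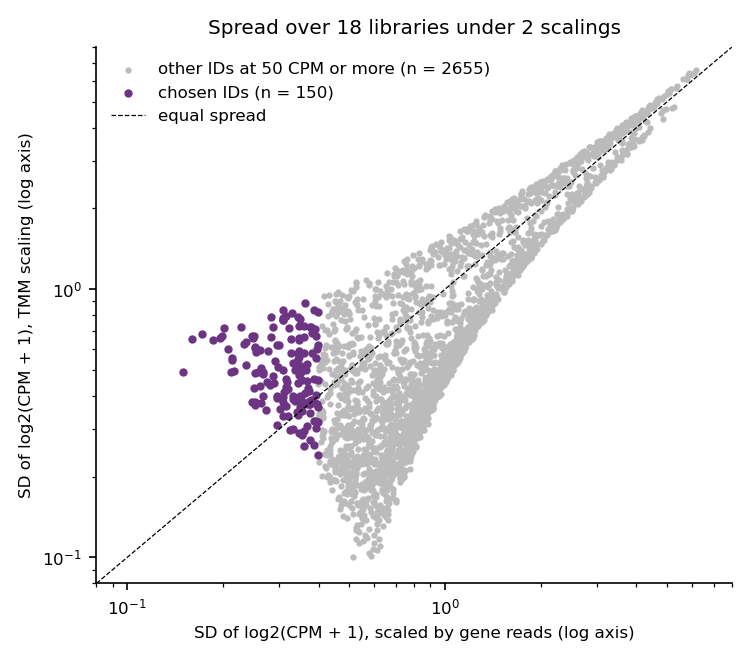
SD of log2(CPM + 1) over 18 libraries under TMM scaling (vertical, log axis) against the SD under scaling by gene reads (horizontal, log axis) for the 2805 IDs at or over 50 CPM, with the 150 chosen IDs in purple and a dashed line of equal spread. Of the chosen IDs 127 lie above the line, and the IDs with the smallest TMM spread, down to 0.10, are not among them.

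Library by library, the members shifted with the split in composition, and on plain CPM, on which they were chosen, by less than other IDs. The median deviation of the members from their own mean was -0.34 to -0.10 on the log2 scale of plain CPM in the 8 libraries rich in the top 10 IDs, and 0.04 to 0.24 in the other 10. Over the 2805 IDs the medians were -0.87 to -0.55 and 0.29 to 0.60. On TMM-scaled CPM the members stood at 0.30 to 0.58 in the 8 libraries and at -0.46 to -0.25 in the 10. Neither scale leaves the members level between the library sorts, and the sign of their deviation is opposite on each. The lowest of a member's 18 libraries on plain CPM was among the 8 in 122 of 150 members, and in 45 it was petiverana hindwing 1. The same counts over the 2805 IDs are not given here, so these are not read as particular to the members. The median of the 2805 IDs was also lowest in petiverana hindwing 1, at -0.87.

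**Figure D3:**
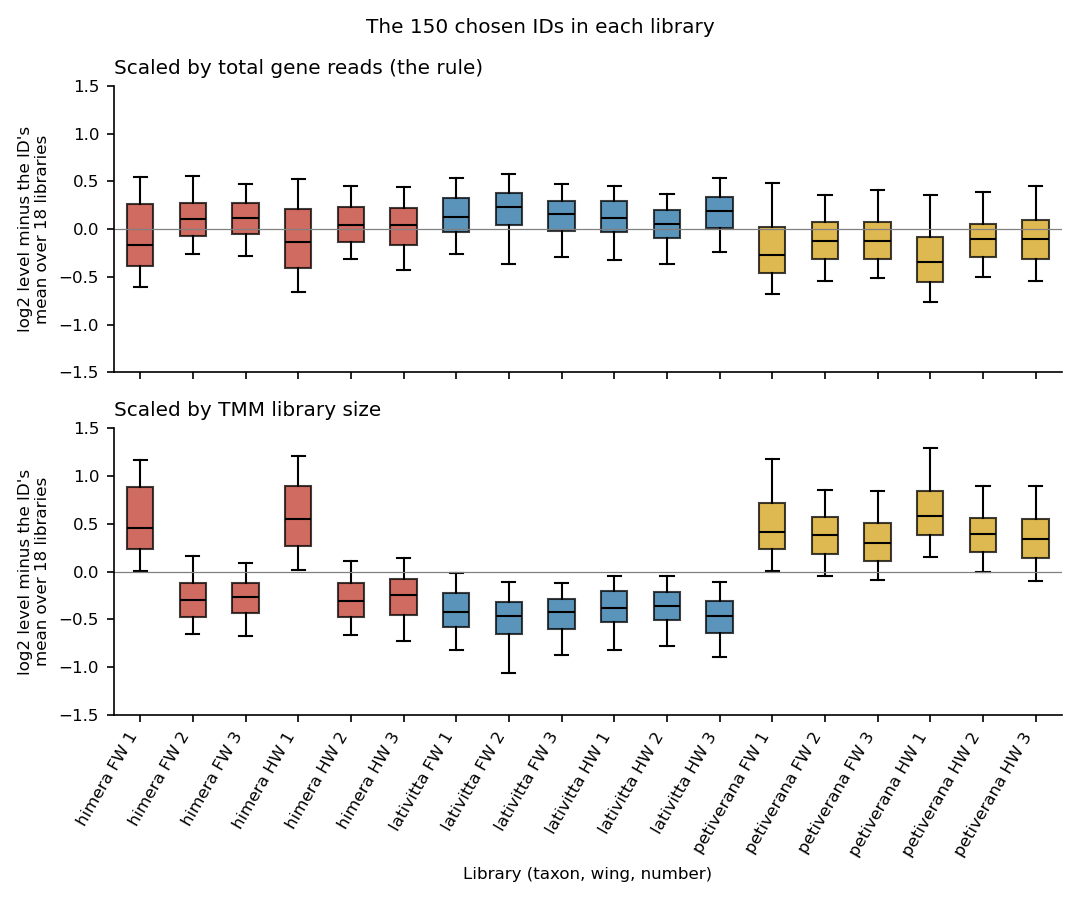
Deviation of each of the 150 IDs from its own mean over 18 libraries (log2 level), by library, on plain CPM (top) and TMM-scaled CPM (bottom), with himera in red, lativitta in blue and petiverana in yellow; boxes span the quartiles with a line at the median, and whiskers reach the 5th and 95th percentiles. The libraries of petiverana and those labelled himera 1 have medians of -0.34 to -0.10 in the top panel and of 0.30 to 0.58 in the bottom panel.

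Summed, the members held 2.72% ± 0.19 (SD, n = 18) of the gene reads, from 125129 to 472201 reads per library. The share was 2.90% ± 0.0728 in lativitta, 2.72% ± 0.136 in himera and 2.54% ± 0.150 in petiverana (SD, n = 6 each). Within himera it was 2.59% and 2.57% in the libraries labelled 1 and 2.79% ± 0.0988 (SD, n = 4) in the others. By library sort it was 2.28% to 2.65% in the 8 libraries and 2.66% to 2.98% in the 10, which did not overlap. With the 10 most abundant IDs of each library taken out of the total, the share was 3.43% to 3.98% in the 8 and 3.04% to 3.34% in the 10, so the order turned, again without overlap.

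Between lativitta and petiverana, whose libraries lie wholly on opposite sides of the split in composition, the direction of the members depended on the scale. On plain CPM the median ratio of lativitta to petiverana was 1.25 in each wing, and 115 of 150 members were higher in lativitta in forewings and 115 in hindwings. Over the 2805 IDs the median ratio was 2.18 in forewings and 2.19 in hindwings, and 2156 and 2169 were higher in lativitta. The members' counts of higher IDs are thus near the share over all these IDs. On TMM-scaled CPM the median ratio was 0.559 in each wing, and 0 of 150 were higher in lativitta. Over the 2805 IDs the median ratio was 0.974 and 0.985 on that scale, and 1347 and 1370 were higher. TMM factors were 1.33 to 1.63 in lativitta and 0.522 to 0.740 in petiverana. IDs chosen as level on plain CPM therefore stand lower in lativitta on the TMM scale, largely by construction. Libraries of both races did not overlap on plain CPM in 68 members in forewings, where 78% of the 2805 IDs did not, and in 67 in hindwings, where 77.7% did not. On TMM-scaled CPM they did not overlap in 137 and 144 members, where 57.6% and 57.1% of the 2805 IDs did not. These counts of members likewise follow largely from the choice and the factors. In bulk tissue, a change in the number of cells of a type and a change in RNA per cell cannot be told apart.

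The test between taxa, edgeR's quasi-likelihood test with TMM scaling and Benjamini-Hochberg adjustment over 9957 IDs, called 68 members in forewings and 76 in hindwings for lativitta against petiverana, all lower in lativitta. It called 24% and 25% of all IDs tested, of which those lower in lativitta made up 12.7% and 13.5% of all IDs tested. The median log2 difference of the members was -0.84 in each wing, beside -0.04 and -0.07 over all IDs. Since the choice of members used these libraries, nothing is read from the counts. The fit also took forewing and hindwing libraries of one number as independent, though they varied together in himera and petiverana. Its p-values and standard errors between taxa may therefore be too small. With plain gene reads as library size the test called 31 and 23 members, of which 30 and 22 were higher in lativitta, beside 57.7% and 54.4% of all IDs called and 49.7% and 47.2% called higher. On that scale the median of the members was 0.33 and 0.32 and the median of all IDs 1.12 and 1.08, and the choice on plain CPM itself holds the members' median below that of all IDs. The forewing count of 68 fell to 31, 25 and 36 without lativitta forewing 1, 2 or 3 and to 43 and 45 without petiverana forewing 2 or 3. The hindwing count of 76 fell to 30, 41 and 30 without lativitta hindwing 1, 2 or 3 and to 50, 47 and 48 without petiverana hindwing 1, 2 or 3. Without both libraries labelled himera 1 the counts were 123 and 126. The shares of all IDs called without these libraries are not given here, so the changes are not read as particular to the members.

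HEL_011995 and HEL_006007 had the smallest p among the members so called. HEL_011995 held 292, 270.0 and 346 TMM-scaled CPM in lativitta forewings against 1045, 1234 and 859 in petiverana forewings. Its hindwings held 371, 472 and 354 against 1169, 1280 and 1008, so both wings were without overlap. The log2 difference was -1.79 (SE 0.22) in forewings and -1.53 (SE 0.22) in hindwings. On plain CPM the direction was the same, at 429.7, 439.7 and 519.6 CPM in lativitta forewings against 642, 869 and 636 in petiverana forewings, and at -0.63 and -0.39 on the log2 scale neither wing was called.

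HEL_006007 held 56.2, 44.8 and 43.5 TMM-scaled CPM in lativitta forewings against 112, 102 and 97.2 in petiverana forewings, and its log2 difference was -1.11 (SE 0.17) in forewings and -1.09 (SE 0.17) in hindwings. On plain CPM the same libraries held 82.7, 73.0 and 65.3 against 68.9, 72.0 and 72.0, which overlapped. For HEL_003058, the steadiest ID, the log2 difference with TMM was -1.05 (SE 0.24) in forewings and -1.07 (SE 0.24) in hindwings, and both were called. With plain gene reads it was 0.11 and 0.08, and neither was called.

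Himera against petiverana gave 4 members in forewings and 7 in hindwings, all lower in himera, beside 7.3% and 9.19% of all IDs called and 3.1% and 3.88% called lower. The 4 of the forewings, HEL_002205, HEL_011995, HEL_014058 and HEL_014542, were also among the 7 of the hindwings. In HEL_014058 the himera forewings held 62.7, 47.5 and 53.9 TMM-scaled CPM and the petiverana forewings 93.6, 127 and 91.0. Its himera hindwings held 67.3, 56.1 and 71.5 against 117, 137 and 122, so neither wing overlapped. These counts rested on single libraries. Without the forewing library labelled himera 1 the forewing count was 36, without the hindwing one the hindwing count was 43, and without both the counts were 81 and 99. Leaving out any other himera or petiverana library of the same wing gave 0 to 4 members in forewings and 0 to 10 in hindwings. How the share of all IDs called changed in these settings is not given here, so nothing particular to the members is read from them.

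Himera against lativitta gave 0 members in either wing, beside 0.934% of all IDs in forewings and 1.9% in hindwings. At an unadjusted p under 0.05 edgeR gave 47 and 41 members, and the share of all IDs at that level is not given here. DESeq2 called 16 and 17 members, all higher in himera, beside 7.1% and 7.83% of all IDs called higher. The median log2 difference of the members was 0.51 and 0.50, beside 0.07 and 0.08 over all IDs, and it was 0.16 and 0.11 without both libraries labelled himera 1. Over all taxon pairs and both wings 81 of 150 members were called at least once, beside 33.3% of all IDs, and 37 with plain gene reads as library size, beside 63.8%. Comparisons that share a taxon share its libraries and are not independent of one another.

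No member was called between forewings and hindwings. With edgeR, the hindwing minus forewing test over the taxa called 0 members, beside 0.0402% of all IDs, with 1 at an unadjusted p under 0.05, and DESeq2 called 0 with 2 at that level. The 1 member in edgeR's test was HEL_014058, at a log2 difference of 0.23 (SE 0.10), which was not called after adjustment. Within himera, lativitta and petiverana edgeR called 0 members each, beside 0.0201%, 0.0301% and 0.0201% of all IDs, with 0 at an unadjusted p under 0.05, where DESeq2 called 0 with 0, 1 and 1. The interaction of wing and taxon gave 0 members, beside 0% of all IDs, with 0 at an unadjusted p under 0.05, and DESeq2 gave 0 called and 0 at that level. A p that misses the threshold does not show that the wings are alike. These fits left out that forewing and hindwing libraries of one number varied together in himera and petiverana. Their p-values between wings may therefore be too large. The shares of all IDs at an unadjusted p under 0.05 are not given here, so those counts are not read as particular to the members.

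On plain CPM the wings did not overlap in 8 members in himera, 14 in lativitta and 3 in petiverana, beside 1.93%, 7.06% and 1.32% of the 2805 IDs. On TMM-scaled CPM the counts were 0, 5 and 4 members, beside 3.28%, 6.88% and 1.21%. On plain CPM HEL_006886 was the one member without overlap in every taxon, and its hindwings were lower each time. Its forewings and hindwings were 86.7 to 104 against 77.1 to 84.6 CPM in himera, 116 to 119 against 107 to 115 CPM in lativitta and 76.3 to 80.5 against 73.5 to 74.2 CPM in petiverana. On TMM-scaled CPM its wings overlapped in every taxon. The other members without overlap in petiverana on plain CPM were HEL_003905 and HEL_004638. HEL_004638 was without overlap in petiverana on both scales, with 77.5 to 88.5 CPM in forewings against 89.0 to 118 CPM in hindwings, and 105 to 127 against 157 to 170.4 on TMM-scaled CPM. HEL_006886, HEL_003905 and HEL_004638 are named here after their wing values were seen.

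Forewing and hindwing libraries of one number varied together in himera and petiverana, which gives 6 pairs. On plain CPM the hindwing was lower in all 6 pairs in 10 members, beside 6.99% of the 2805 IDs, and higher in all 6 in 5 members, beside 1.21%. On TMM-scaled CPM it was lower in all 6 in 2 members, beside 2.71%, and higher in all 6 in 19, beside 5.31%, so the balance of the signs turned with the scale. HEL_004638, HEL_005045, HEL_006284, HEL_010715 and HEL_014058 were higher in every pair and HEL_006673 and HEL_008617 lower in every pair on both scales. These IDs were chosen after their values were seen. With the number within each taxon as a block, edgeR called 0 members between the wings in himera and 0 in petiverana, with 10 and 2 at an unadjusted p under 0.05. The shares of all IDs at that level in the blocked fit are not given here.

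A measure of spread that the choice did not use comes from leaving out a taxon. The rule was applied to 12 libraries, and the 150 IDs so chosen were read in the 6 libraries of the taxon left out. Their median SD there was 0.35 with himera left out, 0.17 with lativitta left out and 0.29 with petiverana left out. All IDs past the level had medians of 0.69, 0.22 and 0.35 in the same libraries. The chosen IDs were below that median in 127, 103 and 93 of 150 cases. The ratio of the medians averaged 0.691 ± 0.161 (SD, n = 3 taxa), with 0.759 for lativitta and 0.807 for petiverana, so the small spread carried over in part. The choices share libraries, so the 3 ratios are not independent of one another. In the 4 himera libraries not labelled 1, read in a setting added after seeing the data, the median SD was 0.14 for the chosen IDs and 0.18 for all IDs, and 89 of 150 were below that median. The ratio for himera was 0.508 with the libraries labelled himera 1 and 0.796 without them.

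The level of the chosen IDs shifted in both races of H. erato when left out. IDs chosen without petiverana stood lower in petiverana by a median of -0.53 on the log2 scale, and 118 of 150 were lower there. Over all IDs past the level the median was -1.03. IDs chosen without lativitta stood at 0.46 in lativitta, beside 0.70 for all IDs, and those chosen without himera at 0.02 in himera, beside 0.04. On TMM-scaled CPM, the IDs that the rule chose had median SDs of 0.16, 0.12 and 0.18 in the himera, lativitta and petiverana libraries left out. All IDs had 0.44, 0.21 and 0.34, and the shifts of the chosen IDs were -0.05, 0.02 and 0.02.

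**Figure D4:**
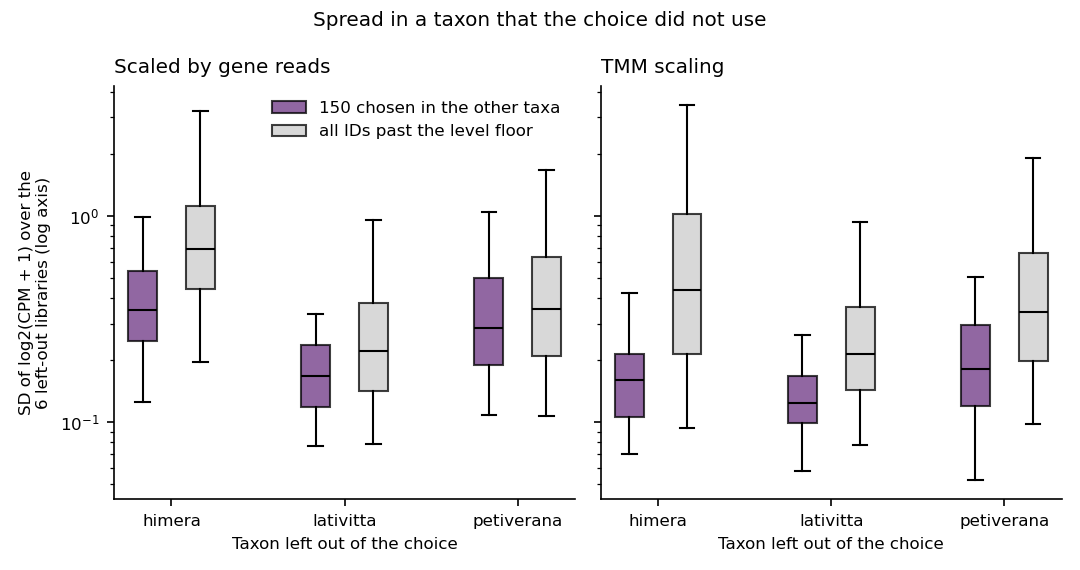
SD of the log2 level in the 6 libraries of a taxon that took no part in the choice, for the 150 IDs chosen on the other 12 libraries and for all IDs past the level, on plain CPM and TMM-scaled CPM; boxes span the quartiles with a line at the median, and whiskers reach the 5th and 95th percentiles. On plain CPM the chosen IDs have medians of 0.35, 0.17 and 0.29 against 0.69, 0.22 and 0.35 for all IDs.

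Membership itself varied with the taxa used. Of the 150 members, 101 were chosen again without himera, 93 without lativitta and 61 without petiverana. Without both libraries labelled himera 1 alone, 111 were chosen again. In all 3 of these choices 35 members recurred, among them each of the 6 steadiest and 16 of the 20 steadiest, and 11 recurred in none. Choosing on forewings alone kept 127 members and on hindwings alone 135. Forewings and hindwings may come from the same animals, so the wings are no independent check of each other.

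Some members bore consecutive ID numbers. Of 92 IDs past the level whose number is next to that of at least 1 member, 17 were members, which is 18.5% against the 5.35% of members among all 2805. They formed 9 pairs, of which those of HEL_005045 made 1 run of 3, HEL_005044 to HEL_005046. Whether ID numbers follow the order of genes on the chromosomes is not given in the sources used here.

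Several of these pairs kept nearly the same ratio in every library. HEL_001800 stood at 0.243 to 0.315 of the CPM of HEL_001801 in all 18 libraries, with an SD of the log2 ratio of 0.11. HEL_003781 stood at 0.248 to 0.329 of the CPM of HEL_003782, also with an SD of 0.11. A ratio of CPM does not depend on the scale, since any library factor cancels. The log2 ratio is that of CPM + 1.

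The SD of the log2 ratio had a median of 0.15 over the 9 pairs, and 6 of the 9 lay under 0.22, the 5th percentile of all 11175 pairs of members, whose median was 0.40. Among all 2805 IDs, pairs with numbers 1 apart had a median SD of 0.66 and pairs 50 apart a median of 1.09. Near numbers thus went with steadier ratios than distant numbers among all IDs, not in the members alone. Genes that overlap or share near-identical sequence could also share reads, and the part of that in these pairs was not tested.

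The exceptions were the pair with the most unequal levels and the run of 3. HEL_001440 exceeded HEL_001441 by 14.3-fold to 47.1-fold in CPM, with an SD of the log2 ratio of 0.45. In the run, HEL_005045 to HEL_005046 had an SD of 0.38 and HEL_005044 to HEL_005045 one of 0.26. HEL_005044 ran from 73.3 to 103 CPM in himera and from 48.4 to 65.3 CPM in petiverana, while HEL_005045 ran from 128 to 205 CPM and from 112 to 147 CPM.

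**Figure D5:**
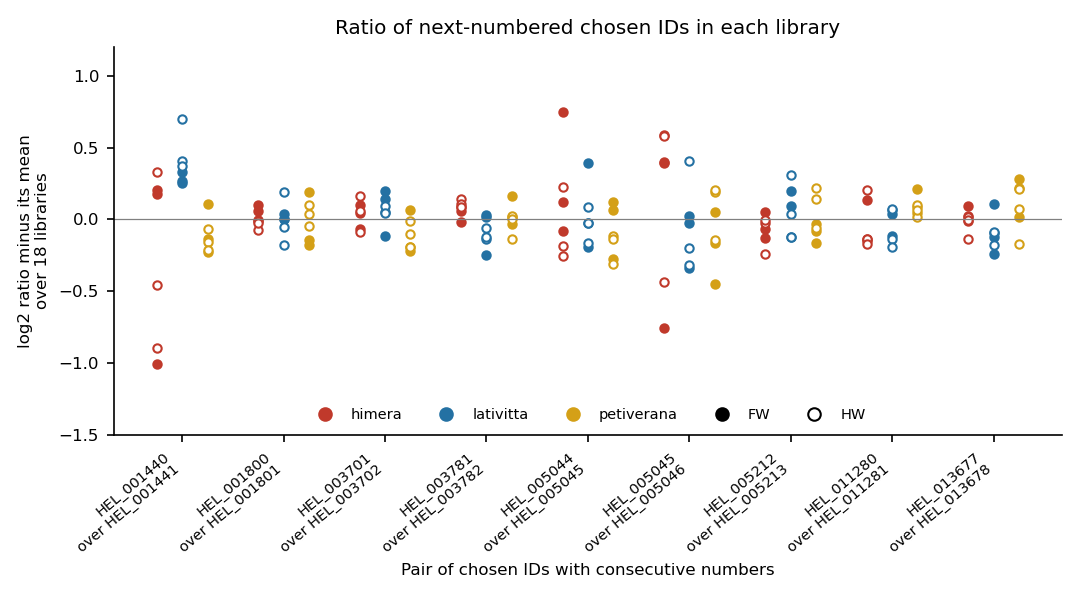
Log2 ratio of the levels of 2 members with consecutive ID numbers, minus the mean of that pair, in each of the 18 libraries, for the 9 such pairs. The 6 closest pairs stay close to 0 in every library, with SDs of at most 0.15, and HEL_001440 over HEL_001441 varies most, with an SD of 0.45.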

How the data were processed

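Values were the raw read counts per gene ID that the authors deposited, 1 table per library, with 14612 IDs and 5 summary rows. The summary rows held 49.4% to 62.4% of reads and stayed out of totals and tests. TopHat, bedtools and DESeq2 are named, without versions, per the submitters' processing notes. For the genome build, annotation, counting program and strand setting, nothing is stated (not given in the sources used here). Without strand, reads of overlapping or antisense genes cannot be told apart.

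Libraries were grouped by taxon and wing from the labels. CPM was computed on the sum of gene reads (plain) or on that sum times edgeR's TMM factor. The rule in the report was applied to plain CPM, with a pseudocount of 1. The members and lists were chosen with earlier results of these data known. The 6 groups were fitted together in R 4.3.3 with edgeR 4.0.16 (filterByExpr, which kept 9957 IDs including all 150 members, glmQLFit and glmQLFTest, 1 mean per group, 12 residual degrees of freedom, threshold 0.05 on the Benjamini-Hochberg adjusted p). DESeq2 1.42.0 was an alternative. Standard errors (SE) are those of log2 fold changes. Tables and plots were made in Python 3.11.15. Both the choice and the test were run on simulated counts with planted IDs. The IDs planted as steady were far steadier than the rest, and libraries had neither a split in composition nor paired wings. These runs therefore check the code and not how the choice or the test behaves in these data.

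IDs were named by rule: the 6 with the smallest SD, the 3 highest and 3 lowest in level, 3 on each side of the cut, the 2 with the largest share between taxa, wings or numbers, the 2 called members per direction with the smallest p, and runs of consecutive numbers. Other names are stated as chosen after their values were seen or complete a count. Planned marker lists were not run, since the IDs carry no names.

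Equal numbers were taken to pair forewing and hindwing libraries where the deviations from group means correlated across IDs above 0.1 in every pair. The values were 0.85 to 0.92 in himera, 0.85 to 0.93 in petiverana and -0.53 to 0.60 in lativitta, and -0.14 to 0.07 between taxa, so numbers pair the wings of himera and petiverana alone. The main fit left this pairing out, so its residual degrees of freedom overstate the independent information in these libraries. Spread shared within a pair counts as error between wings in that fit, so its p-values between wings may be too large. Libraries of one group differed by more than sampling noise in every pair (chi-square per degree of freedom 15.9 or more). The values were 748 to 1222 in pairs with a library labelled himera 1 and 615 to 765 in pairs with one numbered petiverana 1. All other pairs stood at 15.9 to 64.3, so petiverana 1 also stood apart from the rest of its groups. Alternatives covered scaling, pseudocount, level, measure of spread, test, filter, block and left-out libraries.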

Additional observations from a re-analysis of the deposited data

How the results depend on the processing

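Of the 150 IDs, the choice kept 0 on TMM-scaled CPM and 0 with median-of-ratios factors. The members were chosen on plain CPM, so the count on TMM-scaled CPM follows largely from the factors. It kept 85 with a level of 20 CPM, 80 with 100 CPM and 50 with at least 1 read in every library as the only level. It kept 55 with the mean within-group SD, 69 with the median absolute deviation, 93 without lativitta, 61 without petiverana and 130 to 146 without 1 library. Leaving out himera 1 and petiverana 1 in both wings, added after seeing the data, kept 76. The members' share of gene reads, 2.72%, was 3.45% with the 10 most abundant IDs out of the total and 2.71% to 2.75% without 1 library. The ratio of median SDs in a taxon left out, 0.691, was 0.490 on TMM-scaled CPM.

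Members called between taxa numbered 81, beside 33.3% of all IDs. The count was 37 with plain gene reads (added after seeing the data), beside 63.8% of all IDs. It was 19 with the members' own reads as library size and 141 without both libraries labelled himera 1. It was 141 with petiverana 1 also left out in both wings, and 58 to 108 without 1 library. For these last settings the share of all IDs is not given here, so the counts are not read as particular to the members. The median log2 difference of the members between lativitta and petiverana reversed from -0.84 in each wing to 0.14 and 0.13 with the members' reads as library size, which centres the members near 0 by construction, and to 0.33 and 0.32 with plain gene reads. With plain gene reads HEL_003058 reversed to 0.11 and 0.081 and HEL_006007 to 0.055 and 0.073. The replicate block took the number within each taxon for wings and the number over the taxa for taxa. With it, 102 members were called between taxa, 0 between wings and 0 in the interaction. An unadjusted edgeR p under 0.05 was found in 11 members between wings and in 4 in the interaction. The shares of all IDs with the block are not given here, so these counts are not read as particular to the members. The block raised himera against petiverana from 4 and 7 members to 11 and 12, although numbers do not pair taxa, and gave 1 (HEL_006007) and 3 (HEL_006007, HEL_006162 and HEL_011670) for himera against lativitta. Counts of 0 members between wings and in the interaction held under every setting run. The SD of each member was at least 2.55 times its counting SD, and spread at matched depth was not computed. The cause of the changes with leaving out libraries was not tested.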
